A study of Mus musculus with 15 samples.

Results

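The genes described are 43 mouse genes for proteins of the extracellular matrix other than collagen chains, and for enzymes and helpers that modify, fold or trim collagen. They were chosen by name from a list of symbols, with earlier results of these data known, as were the gene lists set beside them. All 43 matched a row among the 56979 gene identifiers of the deposited expression table. That table names genes by Ensembl identifier (ENSMUSG00000023885 for Thbs2, ENSMUSG00000026193 for Fn1). Polyadenylated RNA had been sequenced from mouse bone marrow cells of 2 kinds, labelled BMSC and BMDM, abbreviations usually read as bone marrow stromal cells and bone marrow-derived macrophages. The values are TPM (a length-corrected share of all transcripts in a library, scaled to the same total in each), so levels of different genes can be compared within a library.

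The BMSC libraries formed the groups Aged_NZM, whose treatment is labelled H2HO with NZM, and Aged, labelled H2HO alone. The BMDM libraries formed LPS_NZM (LPS with NZM), LPS and Control (vehicle). LPS is lipopolysaccharide, a bacterial outer membrane component that activates macrophages. Each group held 3 libraries, all from cells of wild type genotype. By the series' own design text, both kinds of cell were first treated with a model drug and then with NZM. NZM and H2HO are not spelled out in the labels, and strain, sex, age, dose, time and the origin of a replicate are not given. BMSC without H2HO and BMDM given NZM without LPS were not analysed here.

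The extracellular matrix is a network of fibres and gels that cells secrete around themselves. Adhesive glycoproteins such as fibronectin connect it to cell surface receptors, microfibrils carry elastin and store latent TGF-beta, and small proteoglycans coat collagen fibrils and set their width. Inside the cell, prolyl and lysyl hydroxylases and the chaperone Hsp47 prepare procollagen, and outside it lysyl oxidases cross-link collagen and elastin. In bone marrow, stromal cells are the main makers of this matrix, and macrophages are better known for degrading it.

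Depth behind the libraries is unknown, since TPM sum to the same total in each. Between 21360 and 23398 identifiers had a TPM above 0, and libraries of a group correlated at r = 0.9896 to 0.9959 over log2(TPM + 1), across genes. The labelled cell types were checked against markers. The 12 macrophage markers summed to between 10335 and 10908 TPM in BMDM libraries and to between 104.3 and 126.8 TPM in BMSC libraries. In BMSC libraries that sum was mostly Cd14 and Cd68, while Ptprc, Adgre1, Itgam, C1qa, C1qb and Tyrobp were listed at 0 or close to it. The 12 stromal and fibroblast markers were present in both, at 4597, 4523 and 4538 TPM in Aged_NZM and 1658, 1539.9 and 1561 TPM in Aged, but also at 2247 to 3042 TPM in the BMDM libraries. In BMDM most of this was collagen, with Col1a1 at 1079 TPM in LPS_NZM, 1036 TPM in LPS and 1303 TPM in Control, while the receptor gene Pdgfra had means of 6.52, 6.72 and 6.01 TPM in the same groups. In such bulk samples fewer cells of a type and less RNA per cell cannot be told apart, and a matrix transcript in the BMDM libraries cannot be assigned to macrophages.

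As a set, the 43 genes made up 2.13% of all transcripts in Aged_NZM, 0.869% in Aged, 0.826% in LPS_NZM, 0.744% in LPS and 0.869% in Control. A mean of at least 100 TPM was reached by 23 of them in Aged_NZM, 18 in Aged, 14 in LPS_NZM, 14 in LPS and 16 in Control. The most abundant was Thbs2 in Aged_NZM, the decorin gene Dcn in Aged, and Sparc in all 3 BMDM groups, where the 5 most abundant members held 66.2% to 68.0% of the members' TPM. In 21 of the 39 members tested over all 15 libraries every BMSC library lay above every BMDM library, and in 6 (Thbs1, Postn, Tnc, Fbn1, Loxl1 and Loxl3) the order was the reverse, against 38.7% and 22.1% of the 16696 genes tested there. Postn, which encodes the collagen-binding protein periostin, showed this most plainly, at no more than 4.59 TPM in any BMSC library and at no less than 136.3 TPM in any BMDM library. These orders between cell types are descriptions without a test.

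A few genes were too low to test in any fit, namely Aspn, Eln, Fbn2 and Mfap4, which left 39 tested members. A gene was tested where at least 3 libraries of a fit had at least 1 TPM. Eln, which encodes elastin itself, read 0.02, 0 and 0 TPM in Aged_NZM and 0, 0.05 and 0 TPM in Aged. In BMDM it read 0.04, 0 and 0 TPM in LPS_NZM, 0.07, 0.12 and 0.20 TPM in LPS and 0.15, 0.43 and 0.09 TPM in Control. Elastin was thus listed near 0 in both kinds of cell, while genes for proteins that assemble elastic fibres were well represented. Fbn2, a second fibrillin gene, did not exceed 0.21 TPM in any library, Aspn (asporin) did not exceed 1.06 TPM and Mfap4, for a microfibril-associated protein, did not exceed 1.13 TPM.

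The effect of NZM on BMSC given H2HO is read from Aged_NZM against Aged. Nearly all matrix genes were higher with NZM. The 43 genes summed to 21575, 21255 and 21145 TPM in Aged_NZM and to 9039, 8454 and 8569.6 TPM in Aged, a ratio of 2.45. By limma's test on log2(TPM + 1), with Benjamini-Hochberg adjustment over all tested genes, 36 of the 39 tested members rose and 1 fell at an adjusted p under 0.05, against 21.6% higher and 48.9% lower among all 13865 tested genes. A log2 change of at least 1 was reached by 25 members, against 3.66% of all tested genes, and the median log2 change was 1.16 over members and -0.18 over all tested genes. Because that median lies below 0, each library was also centred by subtracting the median over its tested genes, after which 38 members were higher, with 31.1% of all tested genes higher and 35.4% lower. The groups did not overlap in 37 of 39 members, nor in 73.8% of all tested genes. After centring no tested member was lower, by limma, and none was lower at an unadjusted p under 0.05 either. Lum reached 1 TPM in only 1 of the 3 Aged libraries and entered the test through the Aged_NZM libraries.

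**Figure D1:**
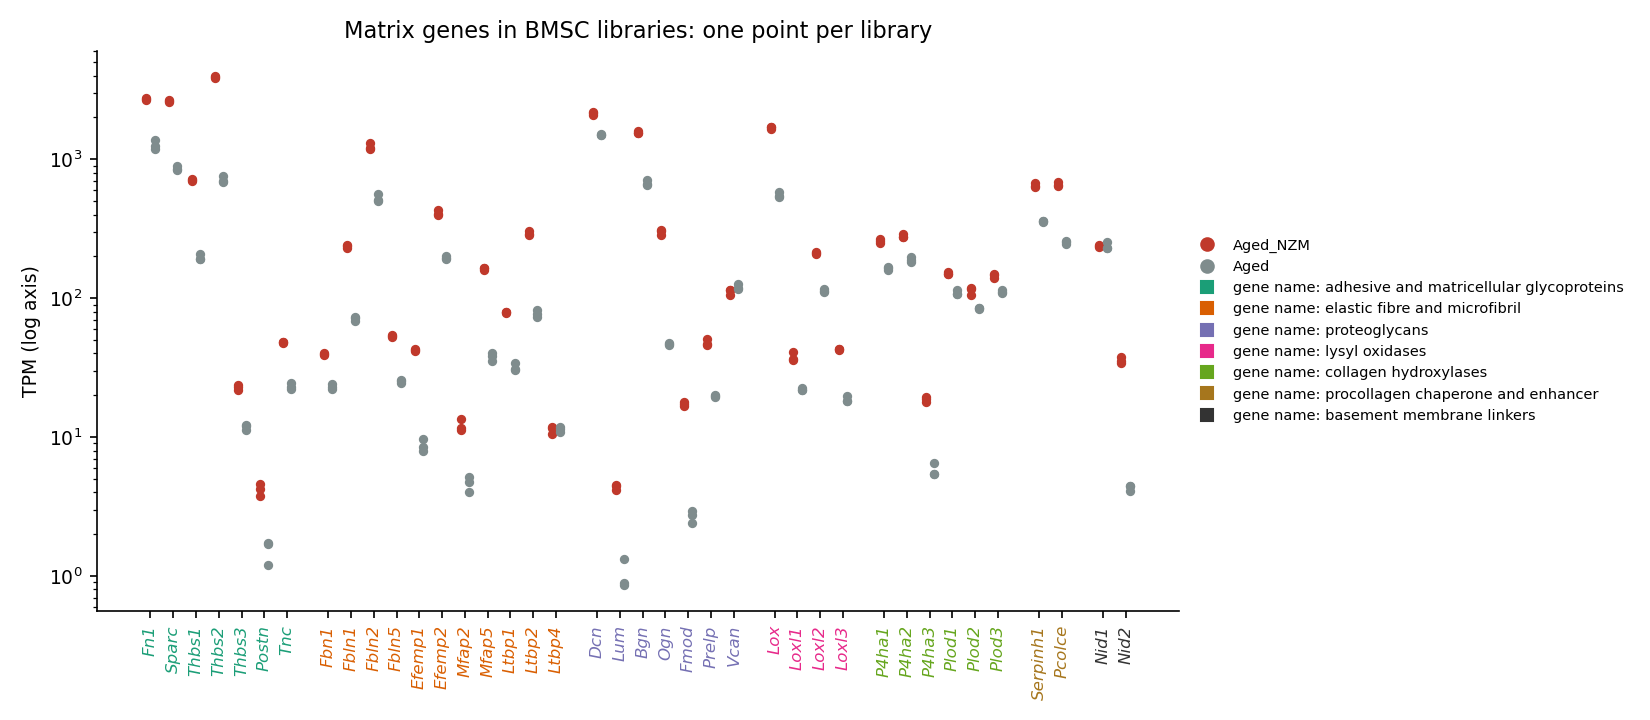
TPM on a log axis of the 39 tested matrix genes in the BMSC libraries, with 1 point per library, red for Aged_NZM and grey for Aged, and gene names coloured by role. Groups lie apart for 37 genes, against 73.8% of all tested genes, and overlap for Ltbp4 and Nid1.

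Promoters of genes that rose strongly and of genes without a rise as deposited are printed side by side. RefSeq promoters of mouse build GRCm38.p6 were in the table used for 29 of the 43 members. Shown are the 250 bases before the start of Thbs2 (chr17:14694263-14694512, minus strand) and Ogn (chr13:49607765-49608014, plus strand), which rose strongly with NZM. Nid1 (chr13:13437352-13437601, plus strand) and Vcan (chr13:89742513-89742762, minus strand) are shown as members without a rise as deposited. After centring Nid1 passed as higher (log2 change 0.17). The genes shown were picked by hand and not by a rule. Capitals mark matches, on either strand, to the TATA box (TATAAA), the TEAD motif (GGAATG) or the GC box (GGGCGG), and each sequence runs 5′ to 3′ along the gene.
Thbs2: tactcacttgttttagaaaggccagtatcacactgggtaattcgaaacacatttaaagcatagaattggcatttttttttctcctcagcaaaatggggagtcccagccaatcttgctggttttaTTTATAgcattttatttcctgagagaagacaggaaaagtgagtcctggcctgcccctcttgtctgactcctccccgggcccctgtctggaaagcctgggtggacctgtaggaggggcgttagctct
Ogn: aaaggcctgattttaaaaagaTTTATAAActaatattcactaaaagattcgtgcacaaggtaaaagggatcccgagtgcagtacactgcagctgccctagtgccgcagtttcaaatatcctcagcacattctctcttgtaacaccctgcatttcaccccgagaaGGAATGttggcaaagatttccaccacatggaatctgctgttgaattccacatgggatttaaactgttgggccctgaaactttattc
Nid1: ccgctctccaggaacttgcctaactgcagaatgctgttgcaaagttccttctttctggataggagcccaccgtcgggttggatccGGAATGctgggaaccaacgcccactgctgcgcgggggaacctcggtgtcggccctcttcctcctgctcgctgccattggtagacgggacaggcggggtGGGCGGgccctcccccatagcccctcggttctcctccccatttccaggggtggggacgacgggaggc
Vcan: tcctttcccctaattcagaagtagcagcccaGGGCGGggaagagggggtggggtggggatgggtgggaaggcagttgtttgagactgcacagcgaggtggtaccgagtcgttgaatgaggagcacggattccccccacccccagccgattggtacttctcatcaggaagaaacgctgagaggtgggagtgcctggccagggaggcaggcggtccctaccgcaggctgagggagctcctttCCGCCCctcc

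In these windows Thbs2 and Ogn held the letters of a TATA box and no GC box, while Nid1 and Vcan held at least 1 GC box and no TATA box. The TATA letters lie 126 to 121 bases before the start in Thbs2 and 229 to 222 bases before it in Ogn. The capitals in Ogn join a pair of overlapping TATA matches on opposite strands. TATAAA was found in 6 of the 29 members (20.7%), namely Thbs2, Postn, Tnc, Ogn, Aspn and Plod1, and in 14.3% of all 27025 genes with a promoter in the table. GGGCGG was found in 20 members (69.0%) and in 35.4% of all genes. These members were Thbs3, Tnc, Fbn1, Fbln1, Fbln2, Fbln5, Efemp1, Efemp2, Mfap2, Ltbp2, Ltbp4, Bgn, Vcan, P4ha1, P4ha2, P4ha3, Plod1, Serpinh1, Pcolce and Nid1. Among them Efemp1 (log2 change 2.16), Ltbp2 (1.90) and Fbln1 (1.72) rose strongly with NZM in BMSC. The split between the windows shown therefore does not extend to all members. GGAATG was found in Mfap2, Ogn and Nid1, and in 14.4% of all genes. The AP-1 motif TGANTCA was found in Efemp1 alone among the members (7.82% of all genes), and an NF-kB motif in no member (0.41% of all genes). In these counts a gene held a motif if any of its promoters matched, with 32851 promoters read for the 27025 genes. The windows printed are the first listed promoter of each gene. A match is a string of letters and says nothing of binding.

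All 7 adhesive and matricellular glycoprotein genes rose in BMSC with NZM, against 21.6% of all tested genes, with a median log2 change of 1.11. Thbs2, which encodes the matricellular protein thrombospondin-2, an inhibitor of blood vessel growth, read 3961, 3901 and 3869.6 TPM in Aged_NZM and 756, 689 and 700.0 TPM in Aged (log2 change 2.45, SE 0.04, adjusted p = 3.35e-10). Thbs1, for thrombospondin-1, which can release TGF-beta from its latent form, read 719, 706 and 698 TPM in Aged_NZM and 207, 191 and 190.4 TPM in Aged (log2 change 1.85, SE 0.04, adjusted p = 1.06e-09). Both thrombospondin genes were several times higher in every Aged_NZM library than in any Aged library. Sparc (osteonectin, a collagen- and mineral-binding protein of bone) read 2679.8, 2638 and 2594 TPM in Aged_NZM and 899.9, 837 and 856 TPM in Aged (log2 change 1.61, SE 0.04, adjusted p = 1.59e-09). Fn1 (fibronectin) read 2762, 2713 and 2692 TPM in Aged_NZM and 1369, 1189.9 and 1235 TPM in Aged (log2 change 1.11, SE 0.05, adjusted p = 7.44e-08). Neither pair of groups overlapped, and in Aged the highest Fn1 value was that of replicate 1. Tnc (tenascin-C, which modulates adhesion) read 48.5, 48.0 and 48.0 TPM in Aged_NZM and 24.5, 22.9 and 22.3 TPM in Aged (log2 change 1.02, SE 0.05, adjusted p = 9.29e-08). Postn was low at 3.77, 4.22 and 4.59 TPM in Aged_NZM and 1.20, 1.69 and 1.74 TPM in Aged (log2 change 1.03, SE 0.12, adjusted p = 4.84e-05). The SE of Postn was the largest of this family. Thbs3, another thrombospondin gene, rose by a log2 change of 0.90.

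Of the 14 genes for elastic fibres and microfibrils 11 were tested and 10 rose, against 21.6% of all tested genes. The median log2 change was 1.22 over the tested genes of this role. Efemp1, which encodes fibulin-3, read 41.9, 42.0 and 42.8 TPM in Aged_NZM and 9.68, 8.50 and 7.97 TPM in Aged (log2 change 2.16, SE 0.07, adjusted p = 9.46e-09). Mfap5, for a microfibril-associated glycoprotein, read 166, 159 and 164 TPM in Aged_NZM and 40.3, 38.2 and 35.6 TPM in Aged (log2 change 2.07, SE 0.05, adjusted p = 1.8e-09). Ltbp2, a microfibril protein that resembles the latent TGF-beta binding proteins, read 303, 288 and 284 TPM in Aged_NZM and 82.0, 73.7 and 76.3 TPM in Aged (log2 change 1.90, SE 0.05, adjusted p = 2.09e-09). In all 3 genes the lowest Aged_NZM library lay above 3 times the highest Aged library. Fbn1 (fibrillin-1, the scaffold of microfibrils) rose less, with 39.2, 39.5 and 40.5 TPM in Aged_NZM and 24.1, 22.8 and 22.2 TPM in Aged (log2 change 0.76, SE 0.05, adjusted p = 5.7e-07). The fibulin genes Fbln1, Fbln2, Fbln5 and Efemp2, whose products bind elastin or fibrillin, rose by log2 changes of 1.72, 1.22, 1.05 and 1.06. Mfap2 rose by 1.21 and Ltbp1, which anchors latent TGF-beta in the matrix, by 1.29. Ltbp4, another latent TGF-beta binding protein gene, read 11.8, 10.6 and 11.7 TPM in Aged_NZM and 11.8, 11.3 and 10.8 TPM in Aged, and its groups overlapped. Its log2 change was 0.0047 as deposited (SE 0.07, adjusted p = 0.954) and 0.16 after centring, when it passed as higher (adjusted p = 0.0391).

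Among the proteoglycans 6 of 7 tested genes rose and 1 fell, against 21.6% higher and 48.9% lower among all tested genes. The median log2 change of the proteoglycans was 1.24. Ogn, which encodes osteoglycin, a small leucine-rich proteoglycan first purified from bone, read 283, 305 and 307 TPM in Aged_NZM and 46.7, 47.3 and 46.1 TPM in Aged (log2 change 2.65, SE 0.04, adjusted p = 2.93e-10). Fmod (fibromodulin, which binds collagen fibrils) read 17.9, 16.8 and 17.4 TPM in Aged_NZM and 2.76, 2.96 and 2.39 TPM in Aged (log2 change 2.31, SE 0.08, adjusted p = 1.48e-08). In both genes the Aged_NZM libraries were all far above the Aged libraries, and Ogn was the gene with the 20th largest rise of all 13865 tested. Dcn (decorin, which limits fibril growth) was among the most abundant members in both groups and rose less, with 2074, 2171 and 2151 TPM in Aged_NZM and 1502, 1496 and 1530.0 TPM in Aged (log2 change 0.50, SE 0.03, adjusted p = 8.89e-07). Bgn (biglycan) rose by 1.22, and Prelp by 1.24 on the log2 scale. Lum (lumican) read 4.41, 4.51 and 4.16 TPM in Aged_NZM and 0.86, 1.33 and 0.89 TPM in Aged (log2 change 1.41, SE 0.12, adjusted p = 5.16e-06). Vcan, for versican, a large hyaluronan-binding proteoglycan, read 105, 114 and 115 TPM in Aged_NZM and 126, 117 and 118 TPM in Aged (log2 change -0.12, SE 0.05, adjusted p = 0.0498), a direction that turned to 0.04 after centring. The groups did not overlap but lay close together. The call of Vcan was lost without Aged_NZM replicate 1 (log2 change -0.08), Aged_NZM replicate 2 (-0.13), Aged replicate 1 (-0.08), Aged replicate 2 (-0.14) or Aged replicate 3 (-0.13), with adjusted p from 0.0535 to 0.154.

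The enzymes that act on collagen also rose, with a median log2 change of 1.03 over 4 lysyl oxidases, which work outside the cell, and 0.51 over 6 hydroxylases, which work inside it. Lox, which encodes lysyl oxidase, the cross-linking enzyme of collagen and elastin, read 1656, 1709 and 1702 TPM in Aged_NZM and 585, 543 and 539 TPM in Aged (log2 change 1.60, SE 0.04, adjusted p = 2.11e-09). Its relatives Loxl1, Loxl2 and Loxl3 rose by log2 changes of 0.74, 0.89 and 1.16, so that all 4 lysyl oxidase genes rose. P4ha1, the main catalytic subunit gene of collagen prolyl hydroxylase, read 249.6, 258 and 265 TPM in Aged_NZM and 168, 166 and 159.6 TPM in Aged (log2 change 0.64, SE 0.04, adjusted p = 3.35e-07). Plod2, the lysyl hydroxylase of collagen telopeptides, read 106, 117 and 117 TPM in Aged_NZM and 84.9, 84.7 and 83.1 TPM in Aged (log2 change 0.42, SE 0.05, adjusted p = 2.75e-05). The libraries of the groups lay apart in both genes. All 6 hydroxylase genes rose, against 21.6% of all tested genes. P4ha3 had the largest change (mean ± SD over 3 libraries here and below, 18.8 ± 0.71 TPM in Aged_NZM, 5.77 ± 0.60 TPM in Aged, log2 change 1.55) and Plod3, whose enzyme also glycosylates collagen, had the smallest (0.38). Serpinh1, which encodes the collagen chaperone Hsp47, read 679, 629 and 641 TPM in Aged_NZM and 354, 358 and 361 TPM in Aged (log2 change 0.86, SE 0.04, adjusted p = 4.67e-08). Pcolce, an enhancer of procollagen trimming, rose by 1.38.

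The nidogens, which join laminin to type IV collagen in basement membranes, parted. Nid2 read 37.5, 35.6 and 33.9 TPM in Aged_NZM and 4.07, 4.47 and 4.47 TPM in Aged (log2 change 2.78, SE 0.06, adjusted p = 1.62e-09), a ratio of 8.23 between the mean TPM. It had the largest rise of the members and the 14th largest of all 13865 tested genes. Nid1 read 243, 237 and 235 TPM in Aged_NZM and 252, 232 and 228 TPM in Aged, with overlapping groups. Its log2 change was 0.0074 as deposited (SE 0.04, adjusted p = 0.886) and 0.17 after centring, when it passed as higher (adjusted p = 0.00237).

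**Figure D2:**
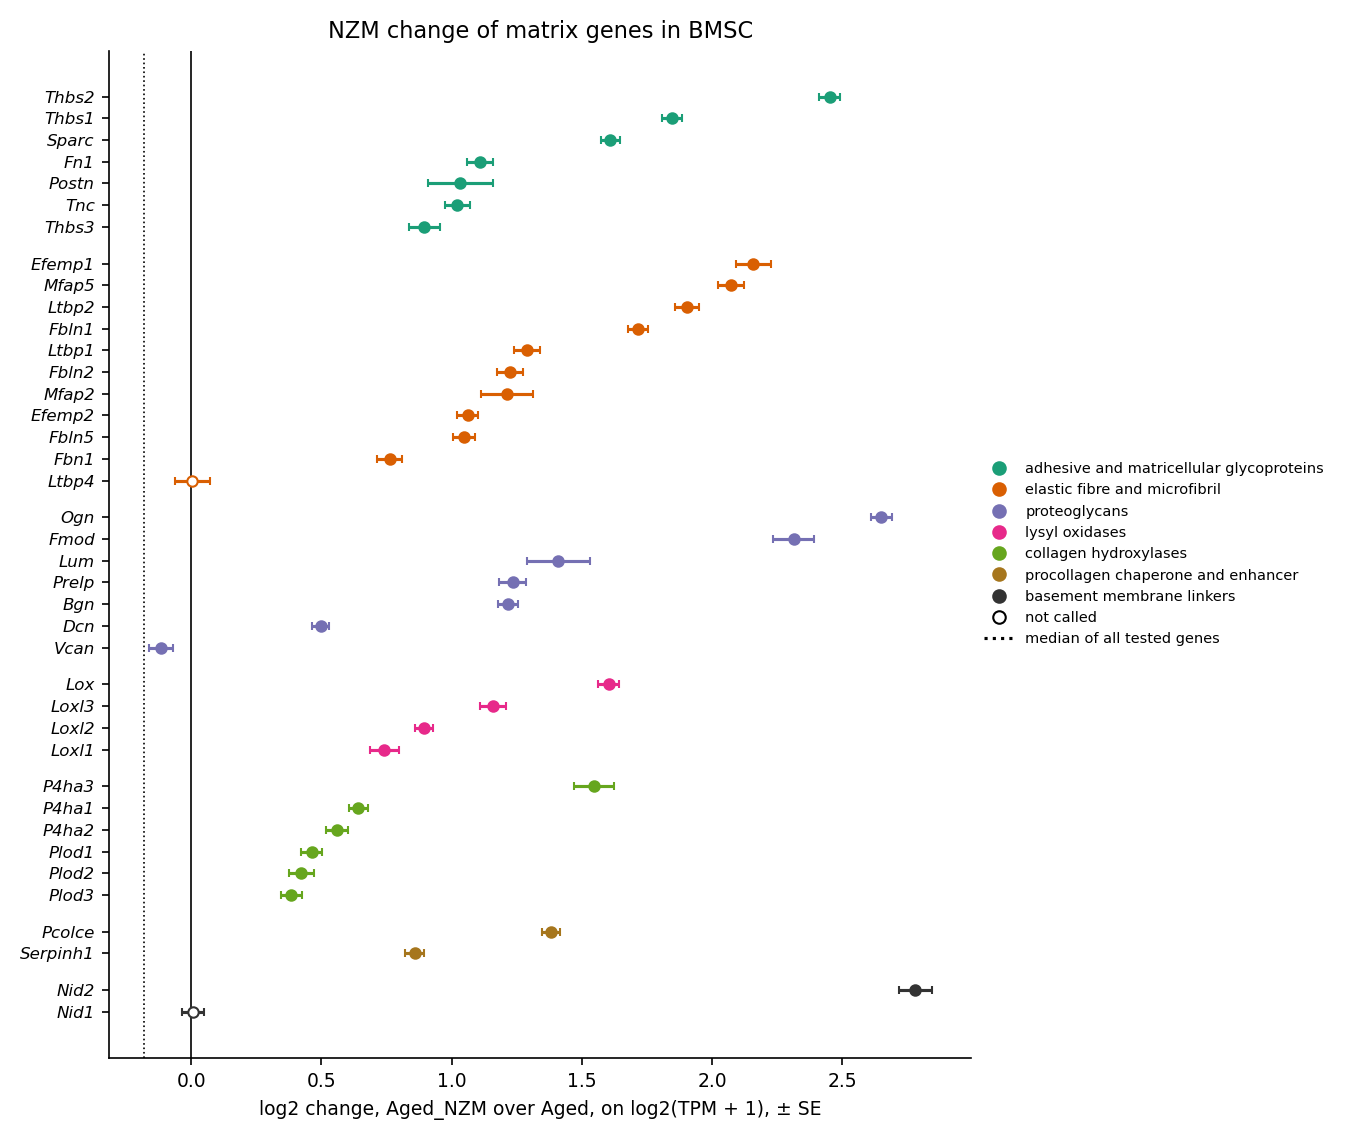
Log2 change of each tested matrix gene in Aged_NZM over Aged on log2(TPM + 1), with bars of 1 SE, coloured by role, open circles for genes without a call and a dotted line at the median of all tested genes (-0.18). Vcan, Nid1 and Ltbp4 lie near 0, and the other 36 genes between 0.38 (Plod3) and 2.78 (Nid2).

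Other genes of the matrix were read from lists of collagen chains, further genes of collagen folding and processing, matrix-degrading enzymes with their inhibitors, and TGF-beta ligands, receptors and direct targets. Their counts in BMSC stand against 21.6% higher and 48.9% lower among all tested genes. All 16 tested collagen chain genes of 18 listed rose in BMSC with NZM (median log2 change 1.21), with Col1a2, a chain of type I collagen, at 1526 ± 13.6 TPM in Aged_NZM and 436 ± 18.7 TPM in Aged, and Col12a1 at 143 ± 4.38 and 38.3 ± 1.67 TPM in the same groups. Of 18 other folding and processing genes 11 rose and 2 fell (median 0.24), the largest rises being those of the procollagen N-proteinase genes Adamts2 (log2 change 1.73) and Adamts3 (1.47). Of 16 degrading enzymes and inhibitors 12 rose and 3 fell (median 0.55). The stromelysin gene Mmp3 rose by 2.08 while Mmp10, a close relative, fell by 2.30 on the log2 scale, with 0.64 ± 0.076 TPM in Aged_NZM and 7.09 ± 0.76 TPM in Aged. Mmp10 was under 1 TPM in every Aged_NZM library and entered the test through the Aged libraries. Of 15 TGF-beta genes 8 rose and 5 fell (median 0.27), with Ccn2, a matricellular target gene, at 435 ± 6.95 TPM in Aged_NZM and 153 ± 4.94 TPM in Aged, and Tgfb2 up by 1.07 on the log2 scale. Markers of stromal cells moved the same way, with 10 of 11 tested markers higher and 1 (Twist2) lower, and their summed TPM were 2.87 times as high in Aged_NZM as in Aged. Most of that sum came from Col1a1, Col1a2 and Col3a1, which also belong to the collagen chain list. Col1a1 averaged 863 TPM in Aged_NZM and 309 TPM in Aged, and Col3a1 783 and 295 TPM. Markers of macrophages summed to 104.3 to 116.4 TPM in Aged_NZM and 119.4 to 126.8 TPM in Aged. The part of the cell make-up in these rises was not tested.

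The comparison of LPS with Control gives the response of BMDM libraries to their model drug. The versican gene Vcan rose most (log2 change 1.70), and the falls with the largest log2 changes were those of the lysyl hydroxylase gene Plod1 (-0.76) and of Mfap2 (-0.76), the second at under 4 TPM. Lum (0.67), Nid2 (-0.65), Fmod (-0.64) and Thbs2 (-0.62) came next. Mfap2 was under 1 TPM in LPS replicates 1 and 2 and entered the test through the LPS_NZM and Control libraries. Of 39 tested members 8 were higher and 26 lower, against 15.2% higher and 65.6% lower among all 14486 tested genes. Members ranged from -0.76 to 1.70, and the median log2 change was -0.25 over members and -0.48 over all tested genes, so most falls as deposited were smaller than the median change of all genes. After centring 29 members were higher and 1 lower, against 36.5% and 29.1% of all tested genes. On both scales Vcan, Lum, P4ha1, Tnc, P4ha2, Plod2, Dcn and Plod3 were higher and Plod1 was lower, and these are the only members called in the same direction on both scales.

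LPS_NZM against LPS gives the change of BMDM libraries when NZM was added to LPS. It shares the LPS libraries with the comparison just given, so the changes of a gene in the 2 are linked by construction and are set side by side without a count of reversals. Of 39 tested members 18 were higher and 10 lower, against 60.4% higher and 16.9% lower among all tested genes. Members ranged from -1.80 to 0.70, and the median log2 change was 0.11 over members and 0.40 over all tested genes. After centring 2 members were higher and 29 lower, against 29.8% and 35.3% of all tested genes. Fn1 and Loxl3 were higher on both scales, and Tnc, Ltbp1, Dcn, Lum, Vcan, Loxl2, P4ha1, P4ha2, Plod2 and Plod3 were lower on both.

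LPS_NZM against Control sets BMDM given LPS with NZM against vehicle, and it shares libraries with both comparisons before it. Of 39 tested members 4 were higher (Lox, Fn1, Loxl3 and Fbn1) and 18 lower, against 18.6% higher and 29.1% lower among all tested genes. Members ranged from -0.68 to 0.32, and the median log2 change was -0.14 over members and -0.07 over all tested genes. After centring 5 were higher and 12 lower, against 24.9% and 22.0% of all tested genes. The 43 genes summed to 8198, 8252 and 8335 TPM in LPS_NZM, 7313, 7425 and 7593 TPM in LPS and 8483, 8805 and 8771 TPM in Control. The LPS libraries were lowest and the Control libraries highest, without overlap. In the same libraries stromal markers summed to 2429, 2405 and 2513 TPM in LPS_NZM, 2247, 2379 and 2454 TPM in LPS and 2811, 3042 and 2914 TPM in Control. Of the 12 stromal markers 2 were higher and 4 lower in LPS_NZM against LPS, 1 was higher and 5 were lower in LPS against Control, and 7 were lower in LPS_NZM against Control. After centring 9 were lower in LPS_NZM against LPS, 10 were higher in LPS against Control, and 1 was higher and 7 were lower in LPS_NZM against Control. Neutrophil markers summed to 1933 to 2321 TPM in LPS_NZM, 2220.5 to 2443 TPM in LPS and 1487 to 1681 TPM in Control. Megakaryocyte markers summed to 990.3 to 1098 TPM in LPS_NZM, 764.4 to 798.3 TPM in LPS and 1055 to 1158 TPM in Control. In each group 1 of the 4 megakaryocyte markers averaged at least 100 TPM. Of 3 tested, 1 was higher in LPS_NZM against LPS and 1 lower in LPS against Control (1 lower and 1 higher after centring). Osteoblast markers summed to 64.1 to 64.8 TPM in LPS_NZM, 37.9 to 43.3 TPM in LPS and 68.2 to 70.5 TPM in Control, with 3 of 4 tested higher in LPS_NZM against LPS and 4 of 4 lower in LPS against Control (3 higher and 1 lower, and 1 higher and 2 lower, after centring). Endothelial markers summed to 81.3 to 84.4 TPM in LPS_NZM, 41.5 to 44.6 TPM in LPS and 46.9 to 49.5 TPM in Control. Of 6 tested endothelial markers 2 were higher and 1 lower in LPS_NZM against LPS (1 and 2 after centring). In LPS against Control 1 was higher and 3 were lower (4 and 0 after centring). Adipocyte markers summed to 160.7 to 167.0 TPM in LPS_NZM, 29.4 to 33.7 TPM in LPS and 145.3 to 161.2 TPM in Control. Of these 5 markers 4 averaged under 1 TPM in every BMDM group. Their sum is thus nearly all 1 gene and cannot be read as an amount of adipocytes. Mural and chondrocyte markers summed to under 12 TPM in every BMDM library. The part of these cell types in the matrix values of the BMDM libraries was not tested.

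Of the 7 glycoprotein genes 4 were higher and 1 lower in LPS_NZM against LPS (1 and 5 after centring), and 1 was higher and 5 lower in LPS against Control (5 and 0 after centring). Among all tested genes 60.4% were higher and 16.9% lower in LPS_NZM against LPS (29.8% and 35.3% after centring). In LPS against Control these shares were 15.2% and 65.6% (36.5% and 29.1% after centring). Fn1 had the largest change with NZM. It read 762, 762 and 777 TPM in LPS_NZM, 451, 482 and 480.0 TPM in LPS and 612, 633 and 616 TPM in Control. The groups did not overlap, LPS_NZM being highest and LPS lowest. Fn1 rose in LPS_NZM against LPS (log2 change 0.70, SE 0.03, adjusted p = 9.07e-09, and 0.24 after centring) and against Control (log2 change 0.31, SE 0.03, adjusted p = 2.15e-05). In LPS against Control its log2 change of -0.40 (adjusted p = 7.33e-07) turned to 0.15 after centring. Tnc read 198, 194 and 203 TPM in LPS_NZM, 231, 238 and 246 TPM in LPS and 192, 202 and 201 TPM in Control. The LPS libraries were highest, and those of LPS_NZM and Control overlapped. Tnc was higher in LPS than in Control (log2 change 0.26, SE 0.03, adjusted p = 4.56e-05) and lower in LPS_NZM than in LPS (log2 change -0.26, SE 0.03, adjusted p = 5.18e-05), while LPS_NZM against Control gave a log2 change of 0.0016 (adjusted p = 0.975). Sparc read 2109, 2159 and 2122 TPM in LPS_NZM, 1863, 1883 and 1915 TPM in LPS and 2264, 2337 and 2359 TPM in Control, lowest in LPS without overlap. Postn read 174, 179.8 and 186 TPM in LPS_NZM, 147, 141 and 136 TPM in LPS and 189, 191 and 175 TPM in Control, and its LPS_NZM and Control libraries overlapped. For Sparc and Postn the called changes in LPS_NZM against LPS (0.17 and 0.35) and in LPS against Control (-0.30 and -0.38) all changed sign after centring (-0.29 and -0.12, 0.25 and 0.17). Thbs1 read 1286, 1287 and 1316 TPM in LPS_NZM, 1311, 1354 and 1382 TPM in LPS and 1443, 1504 and 1492 TPM in Control, and was lower in LPS_NZM than in Control on both scales (log2 change -0.19, SE 0.03, adjusted p = 0.000258). In Thbs1 Control lay above the other groups, which overlapped. Thbs2 averaged 114 ± 1.11 TPM in LPS_NZM, 96.0 ± 1.80 TPM in LPS and 148 ± 4.89 TPM in Control, and was lower in LPS_NZM than in Control on both scales (log2 change -0.37, adjusted p = 9.49e-06, and -0.29 after centring).

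Of 11 tested elastic fibre genes in BMDM 4 were higher and 1 lower in LPS_NZM against LPS (0 and 7 after centring), and 0 were higher and 7 lower in LPS against Control (9 and 0 after centring). Among all tested genes 60.4% were higher and 16.9% lower in LPS_NZM against LPS (29.8% and 35.3% after centring). In LPS against Control 15.2% were higher and 65.6% lower (36.5% and 29.1% after centring), so the 7 lower of 11 lie near the share of all genes. Fbn1 read 71.9, 70.0 and 72.4 TPM in LPS_NZM, 52.2, 52.3 and 54.6 TPM in LPS and 59.9, 66.3 and 63.8 TPM in Control. The groups were apart, LPS_NZM being highest and LPS lowest. Fbn1 was higher in LPS_NZM than in Control (log2 change 0.17, SE 0.04, adjusted p = 0.00799, and 0.26 after centring), whereas its change in LPS_NZM against LPS was 0.42 as deposited and -0.04 after centring, and that in LPS against Control was -0.25 and 0.30. Ltbp1 read 18.1, 19.6 and 19.8 TPM in LPS_NZM, 22.8, 22.5 and 23.0 TPM in LPS and 24.7, 26.9 and 26.8 TPM in Control, again without overlap but with LPS_NZM lowest. It was lower in LPS_NZM than in LPS (log2 change -0.24, SE 0.05, adjusted p = 0.00204) and lower in LPS_NZM than in Control (log2 change -0.43, SE 0.05, adjusted p = 0.000118) on both scales. Fbln1 was low throughout, at 5.83 ± 1.15 TPM in LPS_NZM, 6.27 ± 0.076 TPM in LPS and 7.55 ± 0.68 TPM in Control. In LPS_NZM against Control it passed as lower (log2 change -0.34, adjusted p = 0.044), a call lost after centring and without any 1 of the 9 libraries except LPS_NZM replicate 1, with log2 changes from -0.38 to -0.19 and adjusted p from 0.0503 to 0.141. Efemp1, Mfap2, Mfap5 and Ltbp4 averaged under 3 TPM in each BMDM group. Mfap2 read 1.76, 1.42 and 2.32 TPM in LPS_NZM, 0.98, 0.91 and 1.81 TPM in LPS and 2.95, 3.53 and 1.87 TPM in Control. Its LPS and Control libraries lay just apart, and those of LPS_NZM overlapped both. It entered the test through the LPS_NZM and Control libraries. Mfap2 fell in LPS against Control (log2 change -0.76, SE 0.21, adjusted p = 0.00779), a call lost after centring (-0.21), and its other BMDM changes were not called. Ltbp4 read 1.04, 0.98 and 1.00 TPM in LPS_NZM, 0.52, 0.59 and 0.80 TPM in LPS and 1.26, 1.35 and 0.85 TPM in Control, and entered the test through the LPS_NZM and Control libraries. Its call as lower in LPS than in Control (-0.39 as deposited, 0.15 after centring) was lost without LPS replicate 1 (-0.34), LPS replicate 2 (-0.37), Control replicate 1 (-0.35) or Control replicate 2 (-0.32).

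The proteoglycan gene Vcan had the largest changes of any member in LPS against Control and in LPS_NZM against LPS. It read 24.2, 22.7 and 25.9 TPM in LPS_NZM, 88.3, 87.6 and 85.3 TPM in LPS and 23.8, 28.0 and 26.5 TPM in Control. The LPS libraries lay far above the others, which overlapped. Vcan was higher in LPS than in Control (log2 change 1.70, SE 0.07, adjusted p = 4.46e-09, and 2.25 after centring) and lower in LPS_NZM than in LPS (log2 change -1.80, SE 0.07, adjusted p = 2.75e-09, and -2.27 after centring). LPS_NZM against Control gave a log2 change of -0.10 (SE 0.07, adjusted p = 0.247). Lum read 2.98, 2.80 and 3.59 TPM in LPS_NZM, 7.29, 5.79 and 6.45 TPM in LPS and 4.58, 3.37 and 3.31 TPM in Control, a similar order at a low level. It was higher in LPS than in Control (log2 change 0.67, SE 0.13, adjusted p = 0.00088) and lower in LPS_NZM than in LPS (log2 change -0.86, SE 0.13, adjusted p = 0.000153). Dcn read 78.1, 85.0 and 85.9 TPM in LPS_NZM, 106, 101 and 103 TPM in LPS and 92.5, 87.9 and 92.2 TPM in Control. The groups did not overlap, with LPS highest and LPS_NZM lowest, and the log2 changes were -0.32 in LPS_NZM against LPS (adjusted p = 6.29e-05) and 0.19 in LPS against Control (adjusted p = 0.00229). Of the other tested small proteoglycan genes Bgn, Fmod and Ogn were lowest in LPS. Bgn averaged 771 TPM in LPS_NZM, 727 TPM in LPS and 891 TPM in Control, without overlap. Its called changes in LPS_NZM against LPS (0.09) and in LPS against Control (-0.29) changed sign after centring (-0.38 and 0.25). The call of Bgn in LPS_NZM against LPS was also lost without LPS_NZM replicate 1, LPS replicate 1 or LPS replicate 2. Fmod averaged 11.1 ± 0.51 TPM in LPS_NZM, 9.34 ± 0.58 TPM in LPS and 15.2 ± 1.48 TPM in Control, and Ogn 19.0 ± 0.17, 13.7 ± 0.15 and 19.8 ± 1.84 TPM in the same groups. Bgn, Fmod and Prelp were lower in LPS_NZM than in Control on both scales (log2 changes -0.21, -0.42 and -0.42). The call of Ogn as higher in LPS_NZM than in LPS (0.44) became -0.02 after centring.

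**Figure D3:**
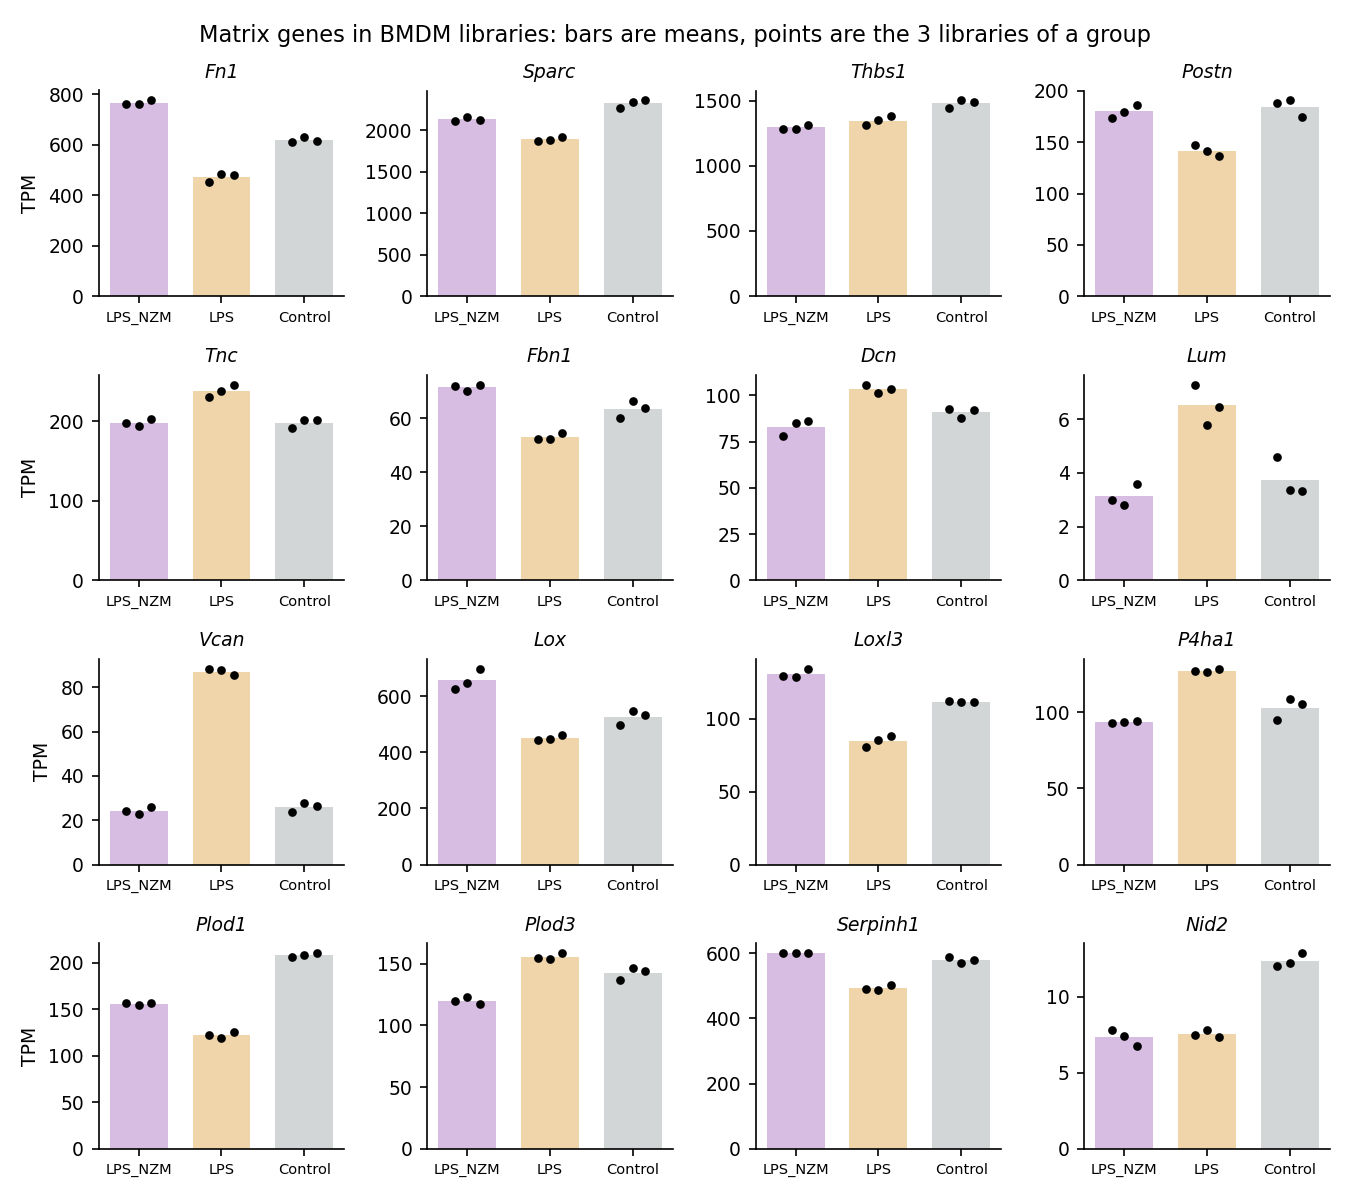
TPM of 16 matrix genes in the BMDM groups LPS_NZM, LPS and Control, with bars at the mean of 3 libraries, 1 point per library and each axis starting at 0. Vcan, Lum, Tnc, P4ha1, Plod3 and Dcn are highest in LPS, while Fn1, Lox, Loxl3 and Fbn1 are highest in LPS_NZM.

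Of the 4 lysyl oxidase genes Lox and Loxl3 were above Control with NZM. In LPS_NZM against LPS 3 were higher and 1 lower (1 and 2 after centring), and in LPS against Control 4 were lower (4 higher after centring). Among all tested genes 60.4% were higher and 16.9% lower in LPS_NZM against LPS (29.8% and 35.3% after centring). In LPS against Control 65.6% of all tested genes were lower (36.5% higher after centring). Lox read 627, 646 and 697 TPM in LPS_NZM, 444, 448 and 462 TPM in LPS and 498, 548 and 531 TPM in Control. Loxl3, for a relative of lysyl oxidase, read 129, 128 and 134 TPM in LPS_NZM, 80.4, 85.2 and 88.3 TPM in LPS and 112, 111 and 111 TPM in Control. In both genes LPS_NZM was highest and LPS lowest, without overlap. Both were higher in LPS_NZM than in Control on both scales (Lox log2 change 0.32, SE 0.05, adjusted p = 0.000276, Loxl3 log2 change 0.22, SE 0.04, adjusted p = 0.000903). In LPS_NZM against LPS the log2 changes were 0.54 for Lox, which fell short of the threshold after centring (0.08), and 0.62 for Loxl3 (0.15 after centring, still called). Loxl2, which acts on collagen and other substrates, averaged 201 ± 6.47 TPM in LPS_NZM, 213 ± 3.52 TPM in LPS and 242 ± 7.92 TPM in Control. Its call as lower in LPS_NZM than in LPS (log2 change -0.08, adjusted p = 0.0444) was lost without LPS_NZM replicate 2, LPS_NZM replicate 3, LPS replicate 2, LPS replicate 3 or Control replicate 3, with log2 changes of -0.08 or -0.07 and adjusted p from 0.0529 to 0.139.

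The 6 collagen hydroxylase genes split in BMDM, with 2 higher and 4 lower in LPS_NZM against LPS (0 and 5 after centring), and 4 higher and 2 lower in LPS against Control (4 and 1 after centring). Among all tested genes 60.4% were higher and 16.9% lower in LPS_NZM against LPS (29.8% and 35.3% after centring). In LPS against Control 15.2% of all tested genes were higher and 65.6% lower (36.5% and 29.1% after centring). P4ha1 read 93.2, 93.3 and 94.2 TPM in LPS_NZM, 127, 127 and 129 TPM in LPS and 94.8, 109 and 105 TPM in Control. Plod3 read 119, 122.7 and 117 TPM in LPS_NZM, 155, 154 and 159 TPM in LPS and 136, 147 and 144 TPM in Control. Both were highest in LPS, without overlap between groups. P4ha1 was higher in LPS than in Control (log2 change 0.31, SE 0.05, adjusted p = 0.000139) and lower in LPS_NZM than in LPS (log2 change -0.44, SE 0.05, adjusted p = 9.52e-06). Plod3 had log2 changes of 0.13 in LPS against Control (adjusted p = 0.0057) and -0.38 in LPS_NZM against LPS (adjusted p = 3.32e-06). P4ha2 and Plod2 had the same calls, with 0.21 and 0.19 in LPS against Control and -0.35 and -0.27 in LPS_NZM against LPS. Plod1, the lysyl hydroxylase gene whose human counterpart is mutated in a form of Ehlers-Danlos syndrome, changed in the other direction, with 157, 155 and 157 TPM in LPS_NZM, 122.5, 119 and 125 TPM in LPS and 207, 208 and 211 TPM in Control. Its groups were apart, LPS being lowest and Control highest. It fell in LPS against Control (log2 change -0.76, SE 0.03, adjusted p = 2.45e-09, and -0.22 after centring) and was also lower in LPS_NZM than in Control (log2 change -0.41, SE 0.03, adjusted p = 1.11e-06), while its change in LPS_NZM against LPS was 0.35 as deposited and -0.11 after centring. The calls of P4ha1 and P4ha2 as lower in LPS_NZM than in Control (-0.14 and -0.14) were both lost after centring, and without LPS_NZM replicate 1, LPS_NZM replicate 2, Control replicate 2 or Control replicate 3, with adjusted p from 0.0662 to 0.122. P4ha1 also lost it without LPS_NZM replicate 3 (adjusted p = 0.0638). P4ha3 averaged 9.04 ± 1.15 TPM in LPS_NZM, 7.12 ± 0.87 TPM in LPS and 11.3 ± 1.65 TPM in Control. It fell in LPS against Control (log2 change -0.60, adjusted p = 0.00122), a call lost after centring (-0.05). Its call as higher in LPS_NZM than in LPS (0.31, overlapping groups) became -0.16 after centring. That call was also lost without LPS_NZM replicate 1 or 2, LPS replicate 1 or 2, or Control replicate 2.

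Serpinh1 read 599.8, 601 and 601 TPM in LPS_NZM, 491, 488 and 502 TPM in LPS and 589.9, 569 and 579.8 TPM in Control. LPS was lowest and the other groups lay close together without overlap. Its log2 change was 0.28 in LPS_NZM against LPS and -0.23 in LPS against Control, and both changed sign after centring (-0.18 and 0.32). Nid2 read 7.82, 7.41 and 6.79 TPM in LPS_NZM, 7.48, 7.84 and 7.32 TPM in LPS and 12, 12.2 and 12.9 TPM in Control. Control lay above the other groups, which overlapped. Nid2 was lower in LPS_NZM than in Control (log2 change -0.68, SE 0.07, adjusted p = 2.98e-05, and -0.60 after centring), and its fall in LPS against Control (-0.65) was no longer called after centring (-0.10). Nid1 was also lower in LPS_NZM than in Control on both scales (log2 change -0.32, SE 0.04, adjusted p = 0.000174).

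**Figure D4:**
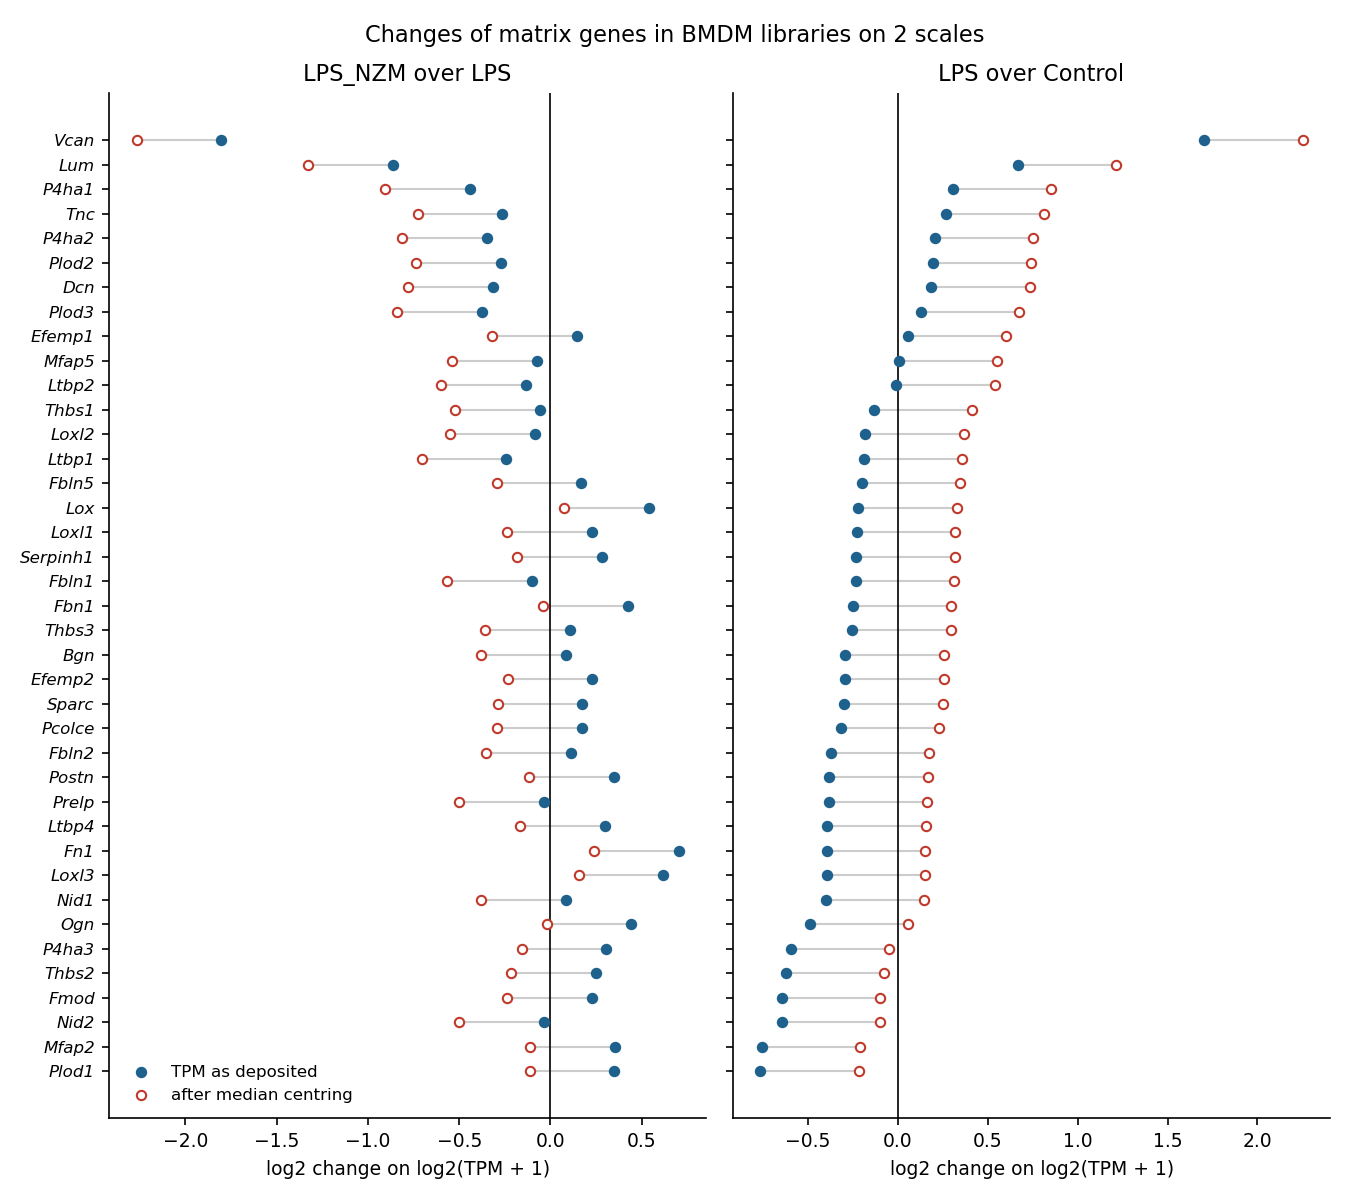
Log2 changes of the 39 tested matrix genes in LPS_NZM over LPS and in LPS over Control on log2(TPM + 1), as deposited (filled) and after subtracting each library's median over tested genes (open). Vcan, Lum, P4ha1, Tnc, P4ha2, Plod2, Dcn and Plod3 keep their side of 0 on both scales in both panels, with a call each time. Nid2 and Mfap5 also keep theirs, but without a call each time. The panels share the LPS libraries.

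In the lists read beside the members, calls of collagen chain genes followed the scale in LPS_NZM against LPS and in LPS against Control. In LPS_NZM against Control they were mostly lower on both scales. Among all tested genes 60.4% were higher and 16.9% lower in LPS_NZM against LPS (29.8% and 35.3% after centring). The same shares were 15.2% and 65.6% in LPS against Control (36.5% and 29.1% after centring). They were 18.6% and 29.1% in LPS_NZM against Control (24.9% and 22.0% after centring). Of 17 tested chains 9 were higher and 6 lower in LPS_NZM against LPS as deposited, and 16 were lower after centring. In LPS against Control 2 were higher and 14 lower as deposited, and 11 were higher and 1 lower after centring. In LPS_NZM against Control 14 were lower as deposited and 13 after centring. Matrix-degrading enzymes had the larger changes. The collagenase gene Mmp13 averaged 246 ± 10.2 TPM in LPS_NZM, 1501 ± 22.1 TPM in LPS and 86.6 ± 6.92 TPM in Control, and Mmp14, a membrane-bound metalloproteinase gene, averaged 304, 1371 and 259 TPM in the same groups. Mmp13 was lower in LPS_NZM than in LPS (log2 change -2.60) and higher in LPS than in Control (4.10), on both scales. In LPS against Control 8 of 18 genes of that list were higher and 6 lower (13 and 3 after centring), and in LPS_NZM against LPS 7 were higher and 9 lower (4 and 12 after centring). Of 17 folding and processing genes 14 were lower and 1 higher in LPS against Control, and after centring 10 were higher and 3 lower. The largest falls were those of Crtap, a partner of prolyl hydroxylation (log2 change -0.97), and Mia3, which loads procollagen into transport carriers (-0.76), and both were also lower after centring. In LPS_NZM against LPS Crtap (0.97) and the collagen glycosyltransferase gene Colgalt1 (1.03) had the largest rises, also after centring (0.50 and 0.57). Of 15 TGF-beta genes 11 were lower and 1 higher in LPS against Control, near the 65.6% lower among all tested genes. Tgfb3 (-2.12) and the receptor gene Tgfbr1 (-1.85) led the falls, and after centring 8 genes of the list were higher and 3 lower. In LPS_NZM against LPS the same genes led the rises (1.54 and 1.51), with 9 of 15 higher and 4 lower, or 5 higher and 9 lower after centring.

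The NZM responses of both kinds of library were compared directly, as the log2 change of Aged_NZM against Aged minus that of LPS_NZM against LPS, in a fit of all 15 libraries. Cell type and model drug differ together between these responses and cannot be told apart. Of 39 tested members 37 had a positive difference, against 17.2% of all 16696 tested genes, and 54.8% of all tested genes had a negative one. A positive difference means a higher signed change in BMSC, which need not be the larger one in size. No member passed with a negative difference by limma, and 1 (Ltbp4) had one at an unadjusted p under 0.05. The median difference was 1.08 over members and -0.45 over all tested genes. After centring all 39 members had a positive difference, against 39.9% positive and 28.7% negative among all tested genes. Ltbp4 and Nid1 did not pass as deposited (differences -0.29 and -0.08, adjusted p = 0.0665 and adjusted p = 0.25).

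For 9 members the responses had opposite calls, higher in BMSC and lower in BMDM, with the difference itself past the threshold, against 4.61% of the 11703 genes tested in all 3 fits. Their BMDM calls were lower on both scales. They were Dcn, Loxl2, Ltbp1, Lum, P4ha1, P4ha2, Plod2, Plod3 and Tnc. The difference was largest for Lum (1.41 in BMSC, -0.86 in BMDM, difference 2.28, SE 0.17, adjusted p = 2.34e-08). Ltbp1 had 1.29 in BMSC and -0.24 in BMDM (difference 1.53, adjusted p = 9.4e-11). Tnc had 1.02 in BMSC and -0.26 in BMDM (difference 1.29, adjusted p = 3.44e-11). Hence a proteoglycan, a latent TGF-beta binding protein and a matricellular gene led this set, and 4 of its 9 genes encode hydroxylases. P4ha1 had 0.64 in BMSC and -0.44 in BMDM (difference 1.08, adjusted p = 7.31e-10). P4ha2 had 0.56 in BMSC and -0.35 in BMDM (difference 0.91, adjusted p = 6.82e-09). Loxl2 had 0.89 in BMSC and -0.08 in BMDM (difference 0.98, adjusted p = 1.22e-10), and its call in BMDM depended on single libraries as given with its levels. The smallest called difference was that of Plod1 (0.11, adjusted p = 0.0333), which was lost without Aged_NZM replicate 1, Aged replicate 2, Aged replicate 3, LPS_NZM replicate 1, LPS_NZM replicate 2, LPS replicate 1 or LPS replicate 3 (differences from 0.09 to 0.12, adjusted p from 0.051 to 0.0836).

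**Figure D5:**
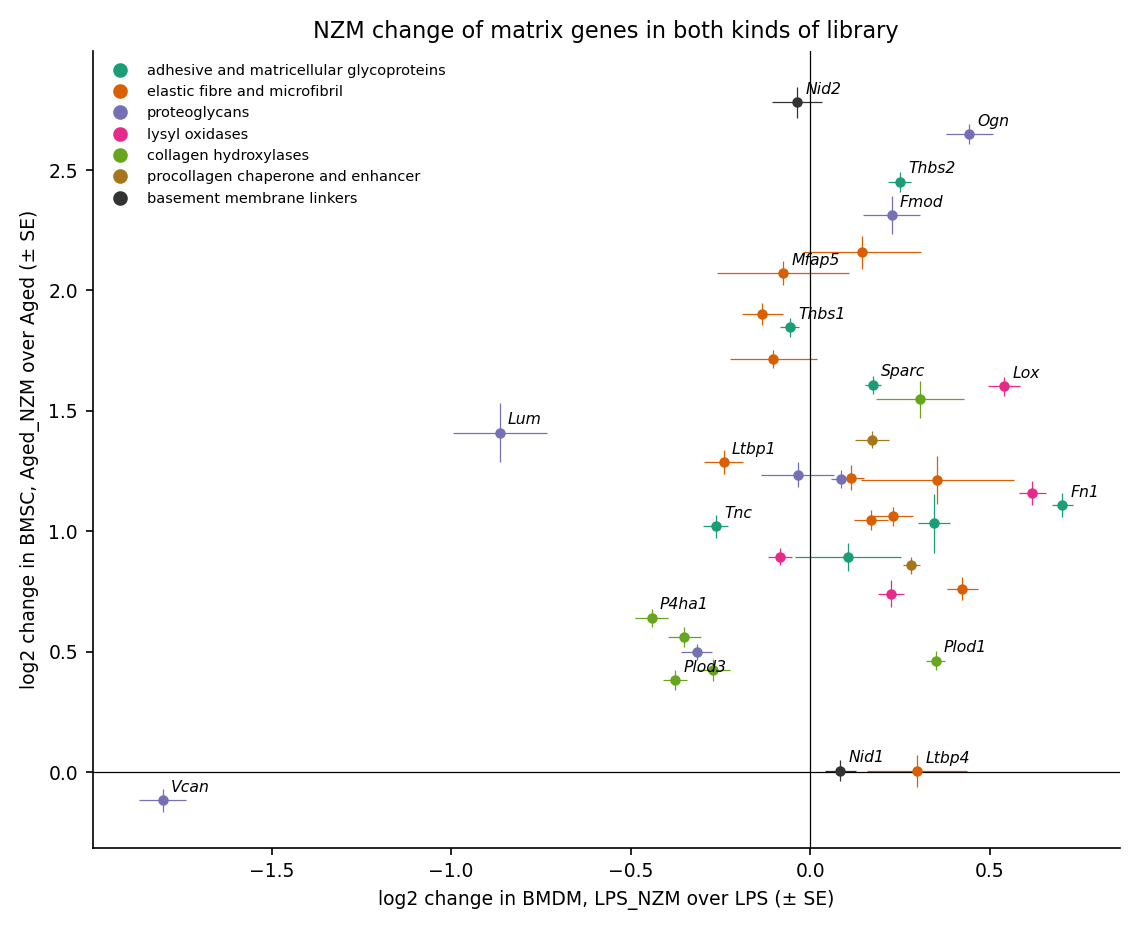
NZM change of the 39 tested matrix genes in BMSC (vertical axis, Aged_NZM over Aged) against that in BMDM (horizontal axis, LPS_NZM over LPS), as log2 changes on log2(TPM + 1) with bars of 1 SE, coloured by role. Nearly all genes lie above 0 on the vertical axis, up to 2.78 for Nid2, while on the horizontal axis they lie between -1.80 (Vcan) and 0.70 (Fn1).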

How the data were processed

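Libraries were made from polyadenylated RNA with a stranded kit and sequenced as read pairs, per the labels' protocols. The authors deposited TPM per Ensembl gene identifier. Of the tools, fastp, RSEM, HISAT2 and StringTie are listed in the submitters' processing notes, with genome build GRCm39; versions and the annotation are not given in the sources used here. Symbols came from a name table that matched 52072 of 56979 identifiers. All 43 members and the lists set beside them were chosen with earlier results of these data known. Groups followed the sample titles.

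Values were tested as log2(TPM + 1), which understates the change of low genes, with limma 3.58.1 in R 4.3.3 (trend, two-sided), for genes at 1 TPM or more in at least 3 libraries. The 6 BMSC and the 9 BMDM libraries were fitted separately, and all 15 together for the difference between NZM responses. P-values were adjusted by Benjamini-Hochberg over all tested genes and called under 0.05. They measure only the spread between these libraries and may reflect technical variation, because the origin of a replicate is not labelled. TPM hold no depth, so no counting interval is given. Named were up to 8 called genes per direction with the largest changes, non-overlapping groups and a mean of at least 5 TPM, plus Fn1, Sparc, Postn, Tnc, Fbn1, Eln, Dcn, Lox, P4ha1, Plod2 and Serpinh1, and up to 2 called genes per further list. Other members are described for completeness. Figures were drawn with Python 3.11.15 and matplotlib 3.10.9. The procedure was tested on simulated data. Alternatives were another pseudocount, other filters, median centring, no trend, weights per library, a replicate block, other sets of libraries and leaving out each library.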

Additional observations from a re-analysis of the deposited data

Results flagged for a closer look

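The results set apart here are members whose NZM response differed between BMSC and BMDM libraries by the test of the difference itself (limma, 15 libraries), given as the log2 change of Aged_NZM against Aged minus that of LPS_NZM against LPS. All 37 were positive, that is, the signed change was higher in BMSC, though not always larger in size. Among glycoproteins the differences were 2.20 for Thbs2, 1.90 for Thbs1, 1.43 for Sparc, 1.29 for Tnc, 0.79 for Thbs3, 0.69 for Postn and 0.41 for Fn1. Among elastic fibre genes they were 2.15 for Mfap5, 2.04 for Ltbp2, 2.01 for Efemp1, 1.82 for Fbln1, 1.53 for Ltbp1, 1.11 for Fbln2, 0.88 for Fbln5, 0.86 for Mfap2, 0.83 for Efemp2 and 0.34 for Fbn1. The proteoglycan genes had 2.28 (Lum), 2.21 (Ogn), 2.09 (Fmod), 1.69 (Vcan), 1.27 (Prelp), 1.13 (Bgn) and 0.81 (Dcn). Lysyl oxidase genes had 1.06 (Lox), 0.98 (Loxl2), 0.54 (Loxl3) and 0.52 (Loxl1). Hydroxylase genes had 1.24 (P4ha3), 1.08 (P4ha1), 0.91 (P4ha2), 0.76 (Plod3), 0.69 (Plod2) and 0.11 (Plod1). The call of Mfap2 was lost with a pseudocount of 0.1 (difference 0.79, adjusted p = 0.0795). The remaining differences were 2.82 for Nid2, 1.21 for Pcolce and 0.58 for Serpinh1. In Vcan the difference came from a fall in BMDM of -1.80 beside a change near 0 in BMSC (-0.12), whereas in Nid2 it came from the rise in BMSC (2.78) beside -0.04 in BMDM. The cell types also differed in the drug given before NZM, so that cell type and model drug cannot be told apart.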

How the results depend on the processing

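In BMSC all 36 rises of members as deposited were also rises after centring, and 36 members were called higher whichever single library was left out. Members called lower in Aged_NZM against Aged (1 as reported, Vcan) numbered 0 with a pseudocount of 0.1, with no filter, after centring, with no trend, with array weights, with a replicate block and in the fit of all 15 libraries, and 0 to 1 with 1 library left out, because the adjusted p of Vcan lies at the threshold. Vcan itself turned to 0.04 after centring.

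Centring changed the BMDM results most, since it removes each library's median over tested genes. In LPS against Control it gave 29 members higher and 1 lower, with reversed log2 changes of 0.15 for Fn1, 0.25 for Sparc, 0.41 for Thbs1, 0.17 for Postn, 0.30 for Fbn1, 0.31 for Fbln1, 0.17 for Fbln2, 0.35 for Fbln5, 0.25 for Efemp2, 0.36 for Ltbp1, 0.54 for Ltbp2, 0.15 for Ltbp4, 0.25 for Bgn, 0.06 for Ogn, 0.16 for Prelp, 0.33 for Lox, 0.32 for Loxl1, 0.37 for Loxl2, 0.15 for Loxl3, 0.32 for Serpinh1, 0.23 for Pcolce and 0.14 for Nid1. In LPS_NZM against LPS it gave 2 higher and 29 lower, with reversed changes of -0.29 for Sparc, -0.21 for Thbs2, -0.12 for Postn, -0.04 for Fbn1, -0.35 for Fbln2, -0.29 for Fbln5, -0.23 for Efemp2, -0.38 for Bgn, -0.02 for Ogn, -0.24 for Fmod, -0.24 for Loxl1, -0.16 for P4ha3, -0.11 for Plod1, -0.18 for Serpinh1, -0.29 for Pcolce and -0.38 for Nid1. In LPS_NZM against Control it left 12 members lower in place of 18. In the difference between NZM responses Ltbp4 turned to 0.33 and Nid1 to 0.55. Members called with a negative difference numbered 1 (Ltbp4), in place of 0, with a pseudocount of 0.1, at which Mfap2 lost its positive call. They also numbered 1 with no trend and in the fit of the 12 libraries without Control, and 0 to 1 with 1 library left out. Which scale is nearer to RNA per cell was not tested.

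With 1 library left out, 8 members were called higher and 25 to 27 lower in LPS against Control. These counts were 14 to 18 and 9 to 12 in LPS_NZM against LPS, and 4 and 14 to 18 in LPS_NZM against Control. A positive difference between NZM responses was called for 36 to 37 members. Whether equal replicate numbers mark paired libraries is not labelled. Deviations from group means correlated at -0.0716 to 0.212 between libraries of the same number and at -0.183 to 0.0929 between other numbers. In LPS_NZM against Control the same-number values were 0.158, 0.030 and 0.212, and the others lay between -0.183 and 0.0424. With a replicate block 17 members were higher and 9 lower in LPS_NZM against LPS, the block having dropped the calls of P4ha3 and Loxl2, and counts of members in LPS against Control and LPS_NZM against Control did not move. The unknown depth limits the low members most, as no floor can be set for them.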
